A study of Homo sapiens with 8 samples.

Results

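The plasminogen activator system of human skin fibroblasts was described through 7 genes, chosen by name: PLAU and PLAT, which encode the urokinase-type and tissue-type activators, PLAUR, which encodes the urokinase receptor, and the serpin genes SERPINE2, SERPINB2, SERPINF1 and SERPINH1. The choice was made with earlier results of these data known. Each of the 7 names matched 1 row of the 24598 genes in the deposited table. The cells, CCD-1077Sk, are a fibroblast line from normal skin, and their RNA was measured after 6 h of treatment, with 2 libraries in each of 4 groups. The first group received transforming growth factor beta 1 (TGFB1), a growth factor known to raise collagen synthesis, together with 500 nM celastrol, a triterpenoid compound found in plants. The second received TGFB1 with DMSO, the third celastrol at 500 nM with bovine serum albumin and citric acid, and the fourth, called control here, bovine serum albumin, citric acid and DMSO. The question was what celastrol does to the TGFB1 response. All cells were of 1 line, and no label ties the paired libraries to separate cultures. The p-values therefore reflect library-to-library spread that may be technical, and no TGFB1 dose is given here.

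Plasminogen activators are serine proteases that cleave plasminogen, an abundant plasma protein, into plasmin, which degrades fibrin and other matrix proteins and can release matrix-bound growth factors. Urokinase acts at the cell surface when held by its receptor, and serpins stop the activators by forming covalent complexes with them. Not all serpins inhibit proteases: the product of SERPINH1 is a chaperone of collagen in the endoplasmic reticulum, and that of SERPINF1, pigment epithelium-derived factor, is a secreted protein with no known protease target.

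Values are normalized reads: estimated reads per gene divided by 1 size factor per library. The 8 libraries held 20716707 to 42518347 estimated reads, and 1 read was worth 0.60 to 1.41 normalized reads. Changes are log2 fold changes of (value + 1) from 1 limma fit over all 8 libraries and 22866 genes, and a gene is said to be higher or lower where its adjusted p was under 0.05 (Benjamini-Hochberg over all genes tested). Levels were not scaled by gene length, so they are compared between groups and not between genes. Genes of fibroblast identity, 10 of 10 in the table, summed to 381770 to 444430 normalized reads with TGFB1 and celastrol, 554800 to 674410 with TGFB1, 400600 to 475530 with celastrol and 471340 to 495880 in control. Of the other markers, 3 melanocyte genes summed to 1270 to 1312 with TGFB1 and celastrol, 222 to 236 with TGFB1, 1312 to 1365 with celastrol and 1034 to 1074 in control. The 4 endothelial genes in the table summed to 360 to 465 with TGFB1 and celastrol, 52.7 to 98.9 with TGFB1, 354 to 370.5 with celastrol and 52.8 to 92.5 in control. In keratinocyte, immune and smooth muscle lists no group's sum exceeded 1072. CDH1, TP63 and PECAM1 were at 0 in both TGFB1 libraries, and TP63 and MLANA in both control libraries. Their part in the results was not tested, and in bulk RNA fewer cells of a type and less RNA per cell cannot be told apart.

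SERPINE2 and PLAUR were at their highest with TGFB1 alone, while SERPINB2 was at its lowest there. PLAU was highest in control, PLAT and SERPINB2 were higher with celastrol whether or not TGFB1 was present, SERPINH1 was lowest in control, and SERPINF1 differed little. All 7 passed the filter on low values in the table, and the 2 libraries of each group are plotted with their means in the panels of level by library.

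**Figure D1:**
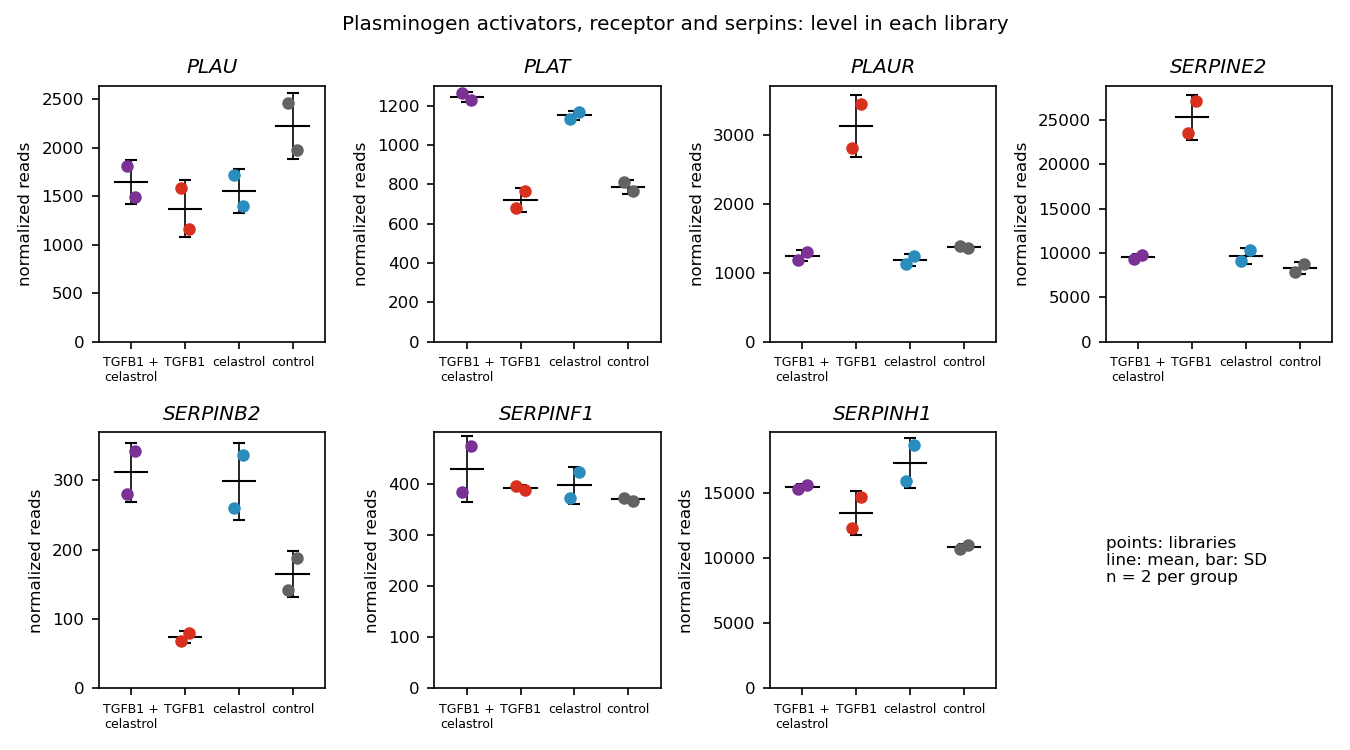
Normalized reads (y axis, from 0) of each of the 7 genes in the 4 groups (x axis), with a point per library, a line at the mean and a bar for the SD (n = 2). SERPINE2 and PLAUR stand highest in the TGFB1 libraries (23513 to 27069.9 and 2802 to 3446 normalized reads), and SERPINB2 stands lowest there (68.1 to 79.9).

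TGFB1 against control asked what the cytokine did on its own. SERPINE2 and PLAUR were higher, SERPINB2 and PLAU were lower, and PLAT, SERPINF1 and SERPINH1 did not pass the threshold. The 2 higher of 7 stand beside 12.8% of all tested genes called higher, and the 2 lower beside 10.6% called lower. The median log2 change was 0.08 over the 7 genes and 0.00 over all tested genes, and the median absolute log2 change was 0.70 and 0.28. The split of all calls depended on the scaling: 2937 genes were higher and 2427 lower as deposited, 1417 and 5399 with each library scaled to a common total, and 4778 and 1775 with median centring.

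Celastrol with TGFB1, against TGFB1, is the comparison the design names. SERPINE2 and PLAUR were lower, SERPINB2 and PLAT were higher, and the other 3 did not pass. The 2 higher of 7 stand beside 37.5% of all genes called higher, and the 2 lower beside 25.9% called lower, so the number called is near what the table as a whole gives. Over all genes 8564 were higher and 5933 lower as deposited, 9809 and 4183 with a common total, and 6956 and 9094 with median centring. A filter of at least 50 in at least 2 libraries gave 4990 higher and 5472 lower. This comparison shares the TGFB1 libraries with TGFB1 against control, so their opposite signs for a gene are not independent of each other. Each comparison's own values are therefore given side by side.

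Celastrol without TGFB1, against control, gave 3 higher genes (SERPINB2, PLAT and SERPINH1), beside 33.8% of all genes, and 1 lower (PLAU), beside 21.3%. Over all genes 7737 were higher and 4868 lower as deposited, 7286 and 6068 with a common total, and 6751 and 7470 with median centring. A filter of at least 50 in at least 2 libraries gave 4619 higher and 4351 lower. TGFB1 with celastrol, against celastrol, gave 0 of 7 at adjusted p under 0.05 in limma, and also 0 of 7 at an unadjusted p under 0.05. Over all genes that comparison called 1 higher and 1 lower of 22866 (0.00437% each), with 868 at an unadjusted p under 0.05.

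**Figure D2:**
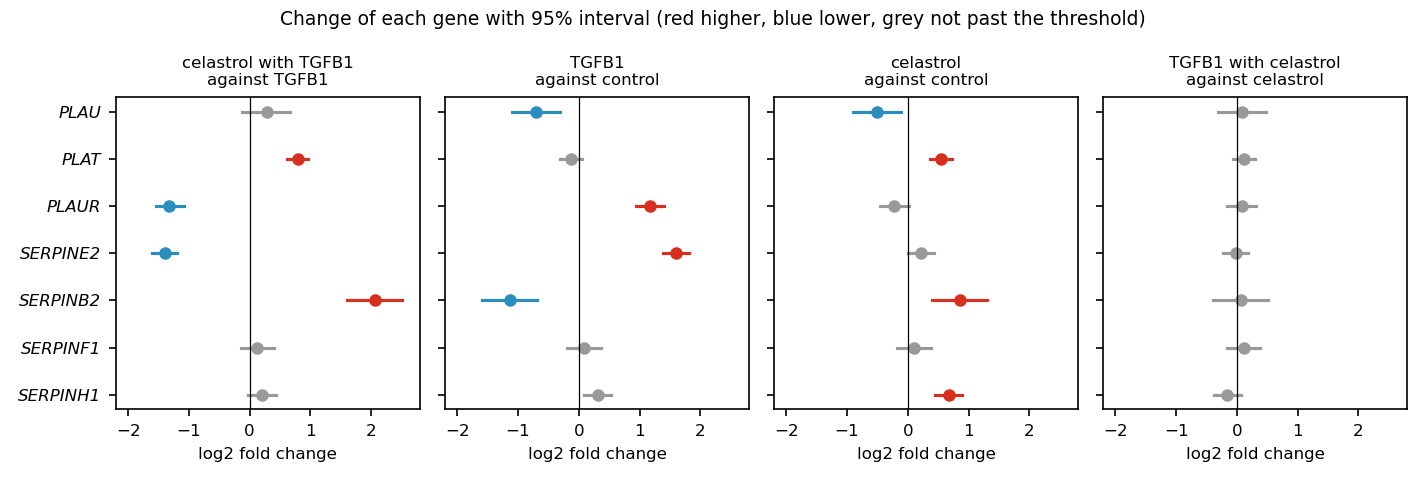
Log2 fold change (x axis) of each of the 7 genes (rows) in 4 comparisons (panels), with its 95% interval from limma; red marks genes that were higher, blue those that were lower and grey those past no threshold. In the panel of TGFB1 with celastrol against celastrol every interval crosses 0, and the estimates lie between -0.16 and 0.11.

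PLAU (chromosome 10, 73909177 to 73917496, hg38, plus strand) encodes urokinase, the activator that works on the cell surface. It had 1807 and 1488 normalized reads with TGFB1 and celastrol, 1580.4 and 1161 with TGFB1, 1715 and 1395 with celastrol alone, and 2460.1 and 1979 in control. Both control libraries were above all 6 others, while the 3 treated groups overlapped. PLAU was lower with TGFB1 than in control by a log2 change of -0.70 (SE 0.17, adjusted p = 0.0207 in limma) and with celastrol than in control by -0.51 (SE 0.17, adjusted p = 0.0341). Celastrol with TGFB1, against TGFB1, gave 0.28 (95% interval -0.12 to 0.67, adjusted p = 0.198) and ranged from -0.01 to 0.50 over the alternatives. The TGFB1 call was lost without TGFB replicate 2 (-0.48, adjusted p = 0.0973) or control replicate 1 (-0.55, adjusted p = 0.125), with the variance trend dropped (adjusted p = 0.0903) and with only the compared libraries fitted (adjusted p = 0.175). The celastrol call was lost without celastrol replicate 2 (-0.36, adjusted p = 0.226), without control replicate 1 (-0.36, adjusted p = 0.199) and without either library of TGFB1 and celastrol (adjusted p = 0.0559 and 0.0557), and without a variance trend (adjusted p = 0.106). Celastrol with TGFB1, against TGFB1, passed without TGFB replicate 1 (0.50, adjusted p = 0.0405). Exons of PLAU overlap those of C10orf55 on the opposite strand, which had 2.42 to 20.01 normalized reads, and no source used here says whether counting used strand.

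PLAT encodes tissue plasminogen activator, the secreted activator that is most active when bound to fibrin. Its level (chromosome 8, 42174718 to 42207709, minus strand) was 1263 and 1227 normalized reads with TGFB1 and celastrol, 679 and 766 with TGFB1, 1135 and 1167.5 with celastrol alone, and 814 and 764 in control. The 4 libraries with celastrol were all above the 4 without it, and TGFB1 and control overlapped. PLAT was higher by 0.79 with celastrol and TGFB1 than with TGFB1 (SE 0.08, adjusted p = 4.11e-05 in limma) and by 0.54 with celastrol than in control (SE 0.08, adjusted p = 0.00044). Both calls held in each of the 17 alternatives run. TGFB1 against control gave -0.13 (95% interval -0.31 to 0.05, adjusted p = 0.285), and that difference passed with a common total (-0.35, adjusted p = 0.00805). Urokinase and tissue activator thus had opposite signs with celastrol alone, PLAU at -0.51 and PLAT at 0.54.

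PLAUR encodes the receptor that holds urokinase at the cell surface through a lipid anchor. It lies on chromosome 19, 43646095 to 43670547, minus strand, and had 1188 and 1306 normalized reads with TGFB1 and celastrol, 2802 and 3446 with TGFB1, 1122 and 1241 with celastrol alone, and 1386 and 1362 in control. Both TGFB1 libraries were above every other library. The order of means was TGFB1, control, TGFB1 with celastrol, and celastrol, and the last 2 of these overlapped. PLAUR was higher with TGFB1 than in control by 1.18 (SE 0.10, adjusted p = 9.77e-05 in limma) and lower with celastrol and TGFB1 than with TGFB1 by -1.32 (SE 0.10, adjusted p = 1.15e-05). Celastrol against control gave -0.22 (95% interval -0.45 to 0.02, adjusted p = 0.103). That difference passed with a common total (-0.30, adjusted p = 0.0289), with median centring (-0.39, adjusted p = 0.0082), with only the compared libraries (adjusted p = 0.0462) and without TGFB replicate 1 or 2 (adjusted p = 0.0383 and 0.0388).

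SERPINE2 encodes protease nexin 1, a secreted serpin that inhibits thrombin, urokinase, tissue activator and plasmin. The gene (chromosome 2, 223975045 to 224039318, minus strand) had 9347 and 9770.3 normalized reads with TGFB1 and celastrol, 23513 and 27069.9 with TGFB1, 9065 and 10316 with celastrol alone, and 7860.3 and 8763 in control. The 2 TGFB1 libraries were above all 6 others. SERPINE2 was higher with TGFB1 than in control by 1.60 (SE 0.09, adjusted p = 1.08e-05 in limma), the largest rise among the 7 genes in that comparison. It was lower with celastrol and TGFB1 than with TGFB1 by -1.40 (SE 0.09, adjusted p = 4.9e-06). Celastrol against control gave 0.22 (95% interval 0.01 to 0.43, adjusted p = 0.0723), with both celastrol libraries above both control libraries, and passed without TGFB replicate 1 or 2 (adjusted p = 0.044 and 0.0441). That value was 0.13 without celastrol replicate 2 (adjusted p = 0.388), 0.14 without control replicate 1 (adjusted p = 0.34), 0.14 with a common total (adjusted p = 0.215) and 0.05 with median centring (adjusted p = 0.671). With celastrol and TGFB1, SERPINE2 averaged 9558.5 ± 299.5, against 9690.3 ± 885 with celastrol (SD, n = 2 each), a log2 change of -0.02 (95% interval -0.23 to 0.19).

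SERPINB2 encodes a mostly intracellular serpin that inhibits urokinase and tissue activator. It lies on chromosome 18, 63871692 to 63903888, plus strand. It had 281 and 342 normalized reads with TGFB1 and celastrol, 68.1 and 79.9 with TGFB1, 259.7 and 337 with celastrol alone, and 141 and 188 in control. In estimated reads, before the size factor, its libraries held 48.2 (TGFB replicate 1) to 401 (replicate 1 of TGFB1 with celastrol). The TGFB1 libraries were below all others, the control libraries came next, and the 2 groups with celastrol were highest and overlapped. SERPINB2 was lower with TGFB1 than in control by -1.13 (SE 0.20, adjusted p = 0.00435 in limma), a call lost with only the compared libraries fitted (adjusted p = 0.0887). It was higher with celastrol and TGFB1 than with TGFB1 by 2.06 (SE 0.20, adjusted p = 3.71e-05), the largest change of any of the 7 genes in any comparison. With celastrol it was higher than in control by 0.86 (SE 0.20, adjusted p = 0.00634), which did not pass once celastrol replicate 2 was left out (0.67, adjusted p = 0.0648). SERPINB10, whose exons overlap those of SERPINB2 on the same strand, had at most 21.1 normalized reads in any library.

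PLAUR and SERPINB2 moved in opposite directions with TGFB1, and both promoter windows hold a match to the AP-1 motif, the site bound by FOS and JUN dimers. RefSeq promoter windows (GRCh38.p14, 250 bases before to 50 after a start site) were found for 5 of the 7 genes, 8 windows in all. The AP-1 motif was searched as TGANTCA on both strands and occurs in 7.71% of all 35116 windows. Counting the start site as 1 with no 0, the match begins at -186 in PLAUR and at -102 in SERPINB2. The stretch of PLAUR is chr19:43670338-43670367 (minus strand), where GENCODE 29 also places an exon of a PLAUR transcript, so 30 bases are shown; the stretch of SERPINB2 is chr18:63887455-63887699 (plus strand). Each match lies before 1 RefSeq start and inside the span of the gene as the table gives it. Both are shown because a match to the same motif stands before a start of a gene that was higher and of a gene that was lower with TGFB1. The matches differ at the middle base, TGAGTCA in PLAUR and TGAATCA in SERPINB2. Capitals mark the AP-1 match and, in SERPINB2, also the TATA box (TATAAA, in 11.5% of windows).
PLAUR: atcacaactccaTGAGTCAgggccgagcca
SERPINB2: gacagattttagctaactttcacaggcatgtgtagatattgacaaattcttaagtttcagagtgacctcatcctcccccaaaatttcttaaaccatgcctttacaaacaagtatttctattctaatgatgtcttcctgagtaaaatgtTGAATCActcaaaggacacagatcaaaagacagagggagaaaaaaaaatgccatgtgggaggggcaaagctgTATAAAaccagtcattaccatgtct

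No AP-1 match was found in the windows of PLAU, SERPINE2 or SERPINH1. The short SMAD box (CAGAC, both strands, in 45.3% of windows) was matched in PLAU, PLAUR and SERPINB2, and the GC box (GGGCGG, in 45% of windows) in SERPINE2, PLAU and SERPINH1. The long SMAD box (GTCTAGAC) and the CRE (TGACGTCA) were matched in none of the 8 windows, and occur in 0.202% and 1.85% of all windows. A match is a string of letters and not evidence of binding.

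SERPINF1 (chromosome 17, 1762029 to 1777565, plus strand) varied least. It had 383 and 474 normalized reads with TGFB1 and celastrol, 395 and 387 with TGFB1, 371 and 423 with celastrol alone, and 373 and 366 in control. The libraries with celastrol overlapped those of both other groups, and the 2 TGFB1 libraries were above the 2 control libraries. Its log2 change was 0.12 with celastrol and TGFB1 against TGFB1 (95% interval -0.15 to 0.40), 0.08 with TGFB1 against control (-0.19 to 0.36) and 0.10 with celastrol against control (-0.18 to 0.38). It passed in none of the comparisons under any alternative run, and its sign depended on the alternative, with ranges of -0.17 to 0.28, -0.14 to 0.20 and -0.07 to 0.19 in these comparisons.

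SERPINH1 encodes the collagen chaperone of the endoplasmic reticulum and is a known heat shock gene. On chromosome 11, 75562056 to 75572783, plus strand, it had 15329 and 15657 normalized reads with TGFB1 and celastrol, 12305 and 14701 with TGFB1, 15966 and 18687 with celastrol alone, and 10702 and 11057 in control. No 2 groups overlapped, and the order of means was celastrol, TGFB1 with celastrol, TGFB1 and control. SERPINH1 was higher with celastrol than in control by 0.67 (SE 0.10, adjusted p = 0.000496 in limma), a call kept in all 17 alternatives. The other differences were smaller: 0.20 with celastrol and TGFB1 against TGFB1 (95% interval -0.02 to 0.43, adjusted p = 0.0984) and 0.31 with TGFB1 against control (0.08 to 0.53, adjusted p = 0.0538). The first was 0.33 without TGFB replicate 2 and 0.08 without TGFB replicate 1. It passed with a common total (0.36, adjusted p = 0.00877 in limma) and had the opposite sign with median centring (-0.08). The second passed without TGFB replicate 1 (0.43, adjusted p = 0.0153) and with median centring (0.43, adjusted p = 0.0113), but was 0.18 without TGFB replicate 2 (adjusted p = 0.228) and 0.08 with a common total (adjusted p = 0.563). Its pseudogene copy SERPINH1P1 had 8.76 to 28.8 normalized reads, so reads shared between the copies would be few beside those of SERPINH1.

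The SERPINH1 window holds both forms of the heat shock element searched, GAANNTTC and TTCNNGAA, overlapping each other and beginning at -71 and -76 from the RefSeq start. Either form occurs in 13.5% of all windows and both in 1.02%. No other window of the 7 genes holds one, and the second SERPINH1 window, for a start further downstream, holds none. The stretch is chr11:75562168-75562197 (GRCh38.p14, plus strand), where GENCODE 29 also places an exon of SERPINH1, and it is shown because SERPINH1 is the heat shock gene among the 7; capitals mark the 2 overlapping matches.
SERPINH1: tttccaactTTCCAGAAGTTTCtcgggacg

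**Figure D3:**
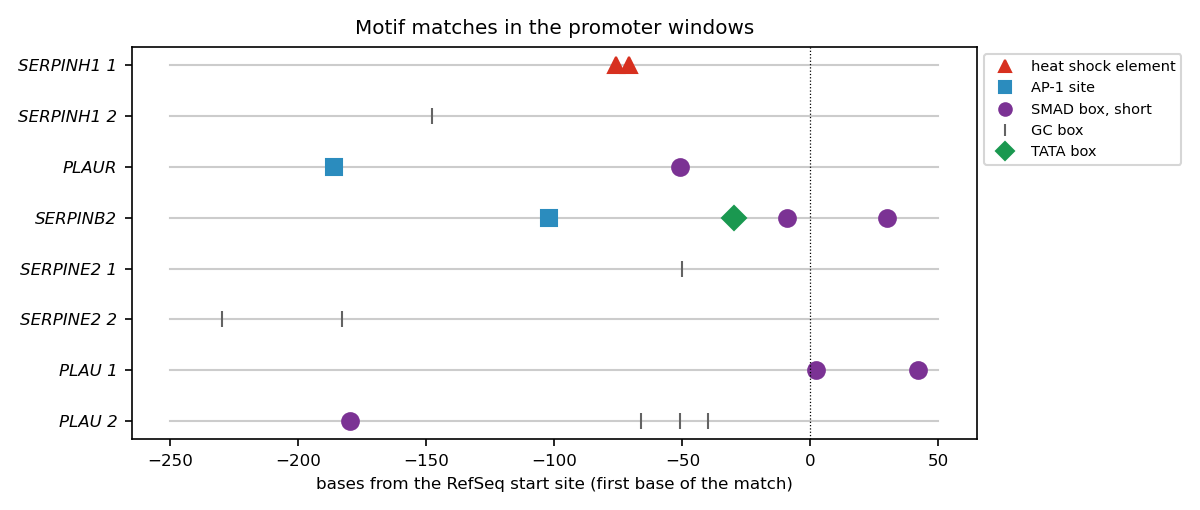
Positions of motif matches (markers) in the 8 RefSeq promoter windows of 5 genes (rows; numbers mark the windows of genes with 2), in bases from the start site (x axis). The heat shock element is in 1 SERPINH1 window at -76 and -71, and the AP-1 match is in PLAUR at -186 and in SERPINB2 at -102.

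Whether the celastrol difference depended on TGFB1 was tested as an interaction, the celastrol difference with TGFB1 minus that without it. It was 1.20 for SERPINB2 (SE 0.28, adjusted p = 0.0296 in limma), -1.10 for PLAUR (SE 0.15, adjusted p = 0.00212) and -1.62 for SERPINE2 (SE 0.13, adjusted p = 0.000204). These are 1 higher of 7, beside 4.36% of all genes, and 2 lower, beside 6.89%; over all genes the split was 997 higher and 1576 lower as deposited, 2474 and 801 with a common total, and 784 and 2748 with median centring. The same number is the TGFB1 difference with celastrol minus that without it: SERPINE2 differed between TGFB1 and no TGFB1 by -0.02 in celastrol and by 1.60 without celastrol, PLAUR by 0.08 and 1.18, and SERPINB2 by 0.07 and -1.13. PLAU gave 0.79 (adjusted p = 0.0798), SERPINH1 -0.46 (adjusted p = 0.0681), PLAT 0.24 (adjusted p = 0.212) and SERPINF1 0.02 (adjusted p = 0.952), none of which passed. The SERPINE2 and PLAUR interactions held in all 16 alternatives, whereas that of SERPINB2 was lost in 7 of 16, among them without celastrol replicate 1 (1.01, adjusted p = 0.111), celastrol replicate 2 (1.39, adjusted p = 0.0568), TGFB replicate 1 (1.09, adjusted p = 0.061), control replicate 2 (1.00, adjusted p = 0.0968) and either library of TGFB1 and celastrol (1.34 and 1.06, adjusted p = 0.072 and 0.142). PLAU and SERPINH1 passed without TGFB replicate 1 (1.01 and -0.59, adjusted p = 0.0297 and 0.0201).

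The 6 lists of related genes give the surroundings of the 7. Their counts stand beside 37.5% of all genes higher and 25.9% lower with celastrol and TGFB1 against TGFB1, 12.8% and 10.6% with TGFB1 against control, and 33.8% and 21.3% with celastrol against control. These shares still include genes tested only because celastrol libraries were high. Genes at 0 numbered 59 to 125 in libraries with celastrol and 1878 to 2693 in those without. With a filter of at least 50 in at least 2 libraries, the median over all genes was -0.06 with celastrol and TGFB1 against TGFB1. Of 15 tested partners and clearance receptors of the urokinase receptor, 4 were higher and 10 lower with celastrol and TGFB1 against TGFB1. With TGFB1 against control, 9 were higher and 1 lower (8 and 5 with a common total). VTN, 1 of the 15, did not reach 10 in 2 libraries without celastrol. Over the other 14 the counts were the same. The median log2 change of the 15 was -0.62 in the first comparison, beside 0.12 over all genes, and 0.51 in the second, beside 0.00. ITGA3, an integrin subunit, was -1.20 and 0.89 in these 2 comparisons, EGFR -0.74 and 0.81, ITGB5 -0.71 and 0.55 and MRC2, a collagen uptake receptor that binds urokinase complexes, -0.82 and 0.70, all past the threshold; the second value of MRC2 did not pass with only the compared libraries (adjusted p = 0.0611). VLDLR, which takes up complexes of activator and serpin, rose by 1.59 with celastrol and TGFB1 and by 1.48 with celastrol alone against control.

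The next list holds 12 genes of plasminogen and proteins linked to it, PLG, CTSB and LRPAP1 among them. With celastrol and TGFB1 against TGFB1, 1 was higher and 5 lower (2 and 1 with a common total, 0 and 9 with median centring). The median was -0.21 beside 0.12 over all genes. With TGFB1 against control, 1 was higher and 1 lower (0 and 2 with a common total, 3 and 1 with median centring). Among them CTSB, which encodes cathepsin B, was -0.38 and 0.31 in these comparisons. The second call was lost with a common total, no variance trend and only the compared libraries (adjusted p = 0.365, 0.0715 and 0.0781 in limma). It was also lost without control replicate 2 (0.27). ANXA2, a plasminogen and tissue activator receptor subunit, was -0.21 in the first. That call was lost with a common total, no variance trend and only the compared libraries (adjusted p = 0.483, 0.0716 and 0.0698 in limma). It was also lost without replicate 1 of TGFB1 with celastrol (-0.18) and without TGFB replicate 2 (-0.17). AHNAK was 0.13 in the first, not past the threshold, and lower by -0.46 in the second. The AHNAK call was lost with only the compared libraries (adjusted p = 0.291). PLG, the plasminogen gene itself, had 3.70 to 13.0 normalized reads over the 8 libraries; it is named after its values were seen.

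Of 21 other serpin genes, 11 were tested. For 4 of the 11 (SERPINB5, SERPINB10, SERPINC1 and SERPINF2), fewer than 2 of the 4 libraries without celastrol reached 10 normalized reads, so they were tested only because celastrol libraries were high. Of the other 7, 3 were higher and 2 lower with celastrol and TGFB1 than with TGFB1, and 2 were higher and 1 lower with celastrol than in control. SERPINB9, a granzyme B inhibitor, rose by 1.47 and 1.32 in these 2 comparisons, and SERPINB6 was -0.56 and -0.44. SERPINF2 and SERPINC1, the plasma inhibitors of plasmin and thrombin, had 61.0 and 39.6 (SERPINF2) and 40.7 and 59.4 (SERPINC1) normalized reads with TGFB1 and celastrol, against 2.82 and 2.46 and 4.24 and 1.23 with TGFB1. Nothing is read from the direction of such genes. With TGFB1, 1 serpin of 11 was higher and 1 lower than in control (0 and 3 with a common total, 2 and 0 with median centring).

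Coagulation and protein C genes had 4 higher and 5 lower of 14 with celastrol and TGFB1 against TGFB1 (4 and 7 with median centring, 5 and 3 with a common total), or 2 and 5 of 12 without F2 and F7, which did not reach 10 in 2 libraries without celastrol. They had 4 higher and 3 lower with TGFB1 against control (4 and 2 without F2 and F7, 3 and 4 with a common total, 4 and 1 with median centring). F3, which encodes tissue factor, the initiator of clotting, was -1.61 in the first and 1.26 in the second. TFPI, its inhibitor, rose by 0.78 in the first and was lower by -0.32 in the second. That lower call was lost with, among others, median centring, no variance trend and only the compared libraries (adjusted p = 0.14, 0.104 and 0.124 in limma). TFPI2 and ANXA5 had the signs of F3, at -0.94 and 2.01 and at -0.30 and 0.39. With only the compared libraries their second values did not pass (adjusted p = 0.0547 and 0.0636 in limma). With a common total neither ANXA5 value passed (adjusted p = 0.054 and 0.0691 in limma). THBD went the other way from F3, at 3.34 and -1.42, with 15.5 and 7.37 normalized reads with TGFB1. Its second value did not pass with only the compared libraries (adjusted p = 0.212 in limma). Nor did it pass without a variance trend (adjusted p = 0.0622 in limma). The THBD call was also lost without TGFB replicate 2 (-0.93) and without control replicate 1 (-1.09). Leaving out either library of TGFB1 with celastrol, or either of celastrol alone, kept -1.42 but lost the call. F2RL1, a receptor cleaved by trypsin-like proteases, was -0.43 and 1.15. Of 18 other serine protease and protease inhibitor genes, ST14, TMPRSS2 and KLK6 were likewise tested only because celastrol libraries were high. Of the other 15, 4 were higher and 3 lower with celastrol and TGFB1 against TGFB1, and 2 were higher and 2 lower with TGFB1 against control. PRSS23, a secreted serine protease, was -1.03 and 0.76, and FAP, a fibroblast surface protease, -0.38 and 0.76. DPP4 and HGF went the other way, DPP4 at 1.19 and -0.47 and HGF at 1.55 and -0.87. Their second values did not pass with only the compared libraries (adjusted p = 0.0968 and 0.166 in limma). That of DPP4 also did not pass with no variance trend (adjusted p = 0.0516 in limma). Both calls were lost with some single libraries left out. DPP4 was then -0.39 without TGFB replicate 2 or control replicate 2. HGF was -0.72 without TGFB replicate 1 and -0.62 without control replicate 2.

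The 21 genes of collagen modification, folding and export, all tested, are the partners of SERPINH1. With celastrol and TGFB1 against TGFB1, 0 were higher and 17 lower, with a median of -0.45 (2 and 15 with a common total), while SERPINH1 itself was 0.20. With celastrol against control, 3 were higher and 6 lower, with a median of -0.06 (2 and 8 with a common total, 0 and 13 with median centring), while SERPINH1 was higher by 0.67. With TGFB1 against control, 13 were higher and 0 lower, with a median of 0.26 (5 and 2 with a common total). P4HA2, a collagen prolyl hydroxylase subunit, was -0.82, 0.03 and 0.82 in these 3 comparisons, and FKBP14, a prolyl isomerase, -0.73, -0.08 and 0.52; the middle values did not pass. The difference between SERPINH1 and the list was not tested.

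**Figure D4:**
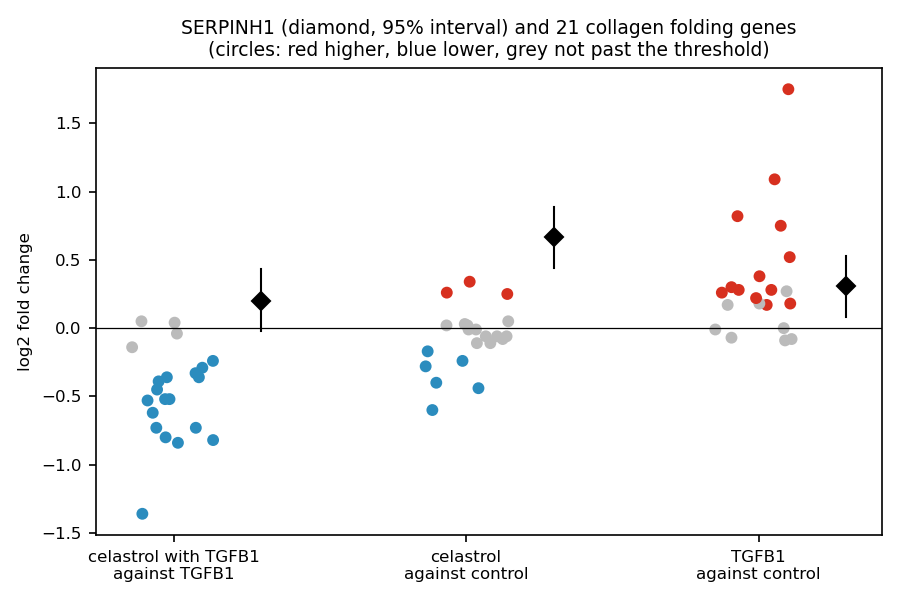
Log2 fold change (y axis) of SERPINH1 (black diamond with its 95% interval) and of 21 collagen folding genes (circles; red higher, blue lower, grey past no threshold) in 3 comparisons (x axis). With celastrol against control SERPINH1 stands at 0.67, above each of the 21 circles.

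For each of the 7 genes the 2 tested genes with the most similar profile were found among 12410 candidates, by the root mean square difference of mean-centred log2 values over the 8 libraries. They were RGMB (0.097) and DSP (0.105) for SERPINE2, NAV1 (0.054) and UBASH3B (0.083) for PLAUR, SLC2A12 (0.125) and NFIA (0.136) for SERPINB2, and SASS6 (0.099) and C5 (0.101) for PLAU. For PLAT they were TSC22D1 (0.054) and IQCE (0.065), for SERPINF1 TRIP10 (0.054) and BCKDHA (0.059), and for SERPINH1 ZNF513 (0.057) and LONP1 (0.063). Candidates within 0.2 numbered 17 for SERPINB2, 35 for SERPINE2, 127 for PLAUR and 189 for PLAU, against 759 for PLAT, 828 for SERPINH1 and 3335 for SERPINF1. NAV1 averaged 6259 normalized reads with TGFB1 and celastrol, 14990 with TGFB1, 5774 with celastrol and 7054 in control.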

How the data were processed

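The deposited table holds 1 signal value per gene and library. The submitters' processing notes name hg38 as the build and list STAR 2.7.3a, DESeq2 and Partek 10.0.22. What each tool did, the gene annotation, strandedness of counting and any filter are not stated there. In the deposited signal, 73.6% to 76% of low values were whole multiples of 1 step per library (tolerance 0.02 reads), and over 20682 genes the median ratio to the geometric mean was 1.0077 in every library. The values are therefore treated as estimated reads over a size factor. The rest did not come out as whole reads, so no count model was fitted. The step gives depth; a count of 0 allows 3 reads, or 1.8 to 4.24 normalized reads, for counting error only.

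Genes of at least 10 in at least 2 libraries were tested with limma 3.58.1 in R 4.3.3 on log2(value + 1), which draws changes of low genes toward 0, with a variance trend, 1 mean per group, two-sided tests and 4 residual degrees of freedom; the steps were tested on simulated data. The start columns are 1-based and the deposited stop is mostly 1 base past the end in GENCODE 29, so 1 was subtracted. The 7 genes and 6 lists were chosen with earlier results of these data known. Named from each list were up to 4 genes with the smallest p in celastrol with TGFB1 against TGFB1 and in TGFB1 against control, and not all are printed. Similar profiles were sought among genes averaging 50 or more, without clone, LINC, small RNA, antisense and pseudogene names. Alternatives were pseudocounts, filters, scalings, no variance trend, only the compared libraries, a replicate block and leaving out each library; list counts over genes reaching 10 in at least 2 of the 4 libraries without celastrol were added after seeing the data. Promoter sequences are from RefSeq; figures used Python 3.11.15 with matplotlib 3.10.9.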

Additional observations from a re-analysis of the deposited data

Results flagged for a closer look

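Of the 7 genes, 3 had a celastrol difference that differed between cells with and without TGFB1, by the interaction term of the limma fit (1 higher and 2 lower, beside 4.36% and 6.89% of all genes). SERPINE2 gave an interaction of -1.62 (adjusted p = 0.000204), from -1.40 with TGFB1 and 0.22 without it. PLAUR gave -1.10 (adjusted p = 0.00212), from -1.32 and -0.22. SERPINB2 gave 1.20 (adjusted p = 0.0296), from 2.06 and 0.86, and was higher with celastrol in both settings. The SERPINB2 interaction was lost in 7 of 16 alternatives, and those of SERPINE2 and PLAUR in 0 of 16.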

How the results depend on the processing

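Over the 7 genes and 5 comparisons, 526 of 588 recomputed values kept their sign and side of the threshold, 18 lost a call and 28 gained one. The other 16 changed sign with no call in either fit. With only the compared libraries, 2 of the 7 genes were called for TGFB1 against control (4 in the main fit). The interaction called 5 with a common total and 5 with the replicate block (3 in the main fit), where all genes called numbered 3275 and 3665 (2573). Leaving out 1 library gave 3 to 5 called genes for TGFB1 against control, 4 to 5 for celastrol with TGFB1 against TGFB1, 2 to 6 for celastrol against control, 0 to 0 for TGFB1 with celastrol against celastrol and 2 to 4 for the interaction. Over all genes, TGFB1 against control called 1684 with only the compared libraries and 3252 to 4763 with 1 library left out (5364 in the main fit), celastrol with TGFB1 against TGFB1 called 11943 to 14180 and celastrol against control 9882 to 13216 with 1 left out, and the interaction called 1245 without a variance trend and 1218 to 2722 with 1 left out (2573). TGFB1 with celastrol against celastrol called 0, 0 and 0 genes with a pseudocount of 0.5, no filter and median centring, 1 each with a pseudocount of 10, a filter of at least 50, no variance trend, only the compared libraries and the replicate block, and 0 to 0 with 1 left out. The signs of SEC23A for TGFB1 against control (-0.01, common total) and SERPINB7 for celastrol with TGFB1 against TGFB1 (-0.02, median centring) were reversed. The cause was not tested.

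The labels do not say that a replicate number marks a shared culture or day, and with 2 numbers they are not established as pairs; the correlation of replicate differences between groups was 0.17 to 0.23. With the replicate block, SERPINH1 (adjusted p = 0.00701) was also called for TGFB1 against control, PLAU (0.00294) and SERPINH1 (0.0186) for celastrol with TGFB1 against TGFB1, SERPINE2 (0.00375) and PLAUR (0.032) for celastrol against control, and PLAU (0.000335) and SERPINH1 (0.00875) for the interaction. Depth limits SERPINB2 most, with 48.2 estimated reads in its lowest library.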
